A study of Homo sapiens with 4 samples.

Results

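The 6 genes CCL3, CCL4, CCL5, CCL17, CCL22 and CXCL10 encode chemokines that activated B cells can secrete. They were taken by symbol, with every probe set annotated to them, which gave 11 probe sets for 6 of the 18240 genes that the array names. The 3 probe sets of CCL4 are also annotated to its near-identical copies CCL4L1 and CCL4L2, so that signal of CCL4 cannot be told apart from theirs. RNA was measured, not secreted protein.

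RNA came from 2 human mantle cell lymphoma cell lines, REC-1 and Z138, a malignancy of mature B cells. Each line gave 1 culture exposed to CC-292, a covalent inhibitor of Bruton tyrosine kinase (BTK), and 1 control culture, so that the groups were REC-1 CC-292, REC-1 control, Z138 CC-292 and Z138 control with 1 array each. The labels give an exposure of 48 h, with no time in the title for control cells of Z138. The protocol gives a dose of 1 uM and the titles of the treated arrays 1 mM, and the labels do not say what the controls received. Each array holds bulk RNA of a culture, in which fewer expressing cells and less RNA per cell cannot be told apart.

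Chemokines are small secreted proteins that guide cells bearing the matching receptor. CCL3 and CCL4 are early products of B-cell receptor signalling, which runs through BTK to NF-kB, and in chronic lymphocytic leukaemia they are known to draw T cells and monocytes to the malignant B cells. CCL5 is better known as a product of T cells and NK cells, CCL17 and CCL22 are the ligands of CCR4, and CXCL10 is an interferon-induced ligand of CXCR3.

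Values are log2 probe-set signals, and a difference of 1 is 2-fold. Background was read on each array from 23 nonspecific control probe sets, whose median lay between 3.06 and 3.12 and whose 95th percentile lay between 4.35 and 4.48. A value above that 95th percentile is called above background. A probe set was kept for the fits when at least 1 of its 4 values was at or above log2 4.63, the median over the whole table, as 8 of the 11 chemokine probe sets did (27763 of 49293 in all). The arrays had nearly equal quartiles, and the 6 measured B-cell marker genes were above background on all 4 arrays, as were CCND1 and SOX11. Of the myeloid and dendritic cell markers, 0 of 8 were above background on any array. Of the T-cell and NK-cell markers, 3 of 6 and 2 of 5 were, led by CD3G at 6.07 and 5.96 on the Z138 CC-292 and control arrays. ACTB probe sets at the 3' and 5' end of the transcript, which part as RNA degrades, differed by 0.53 on the REC-1 CC-292 array and by 0.77 on the REC-1 control array, against 1.11 and 1.12 on the Z138 CC-292 and control arrays. The same measure for GAPDH was nearly equal over the arrays, at -0.31 and -0.32 on the REC-1 CC-292 and control arrays and -0.24 and -0.28 on the Z138 CC-292 and control arrays. The part of RNA integrity in the differences below was not tested.

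In RefSeq (GRCh38.p14), CCL3 and CCL4 are neighbouring protein-coding genes on chromosome 17, which also holds CCL5. CCL17 and CCL22 lie on chromosome 16, both next to the chemokine gene CX3CL1, and CXCL10 lies on chromosome 4 beside CXCL11. RefSeq promoter sequences were at hand for 3 of the 6 genes. The 250 bases before the start of these 3 genes, CCL3, CXCL10 and CCL22, are shown. They lie at chr17:36090144-36090393 (minus strand), chr4:76023498-76023747 (minus strand) and chr16:57358533-57358782 (plus strand), and capitals mark the motif matches:
CCL3: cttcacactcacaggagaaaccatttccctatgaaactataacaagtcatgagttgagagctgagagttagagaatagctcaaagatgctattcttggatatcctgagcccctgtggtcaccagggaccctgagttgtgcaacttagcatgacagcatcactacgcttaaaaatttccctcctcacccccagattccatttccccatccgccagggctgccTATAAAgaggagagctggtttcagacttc
CXCL10: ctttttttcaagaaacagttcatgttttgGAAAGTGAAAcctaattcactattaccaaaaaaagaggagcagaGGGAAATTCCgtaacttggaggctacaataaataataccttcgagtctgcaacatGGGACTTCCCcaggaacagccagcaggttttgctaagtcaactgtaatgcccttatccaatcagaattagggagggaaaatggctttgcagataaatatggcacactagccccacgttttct
CCL22: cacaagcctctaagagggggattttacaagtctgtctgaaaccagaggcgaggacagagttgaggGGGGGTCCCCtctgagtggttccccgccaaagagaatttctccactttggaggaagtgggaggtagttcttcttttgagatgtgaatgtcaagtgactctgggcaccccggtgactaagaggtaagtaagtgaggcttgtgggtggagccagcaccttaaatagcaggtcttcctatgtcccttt

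The letters of 5 motifs were searched, on both strands except for the TATA box, which was searched on the sense strand. The NF-kB consensus matched at 2 places in the CXCL10 window, GGGAAATTCC and GGGACTTCCC, and at 1 place in the CCL22 window, GGGGGTCCCC, and it occurs in 5.07% of 27305 RefSeq promoter windows of the same length. An interferon-response motif, GAAANNGAAA, matched in the CXCL10 window as GAAAGTGAAA and occurs in 3.07% of windows. The TATA box TATAAA matched at bases 29 to 24 before the start of CCL3 and occurs in 7.20% of windows. The AP-1 motif TGANTCA and the interferon-gamma motif TTCNNNGAA (6.57% and 6.76% of windows) had no match in these 3 windows. Matches of the listed motifs did not overlap each other. A match is a string of letters and no measured binding site, and a missing match concerns only this window.

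The 3 CCL4 probe sets read log2 7.38 to 8.75 in REC-1, far above background, and in Z138 the 11 chemokine probe sets stayed at or under 5.58. Signals of different probe sets depend on their probes and are set only against background. Above background were 5 of the 11 probe sets on the REC-1 CC-292 array and 8 on the REC-1 control array, against 2 on the Z138 CC-292 array and 7 on the Z138 control array. Over all 49293 probe sets the shares above background on these arrays were 52.1%, 52.2%, 53.6% and 52.5%. The probe set of CCL17 and the second probe sets of CCL5 (11732275_at) and CCL22 (11731706_at) were at background on all 4 arrays.

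**Figure D1:**
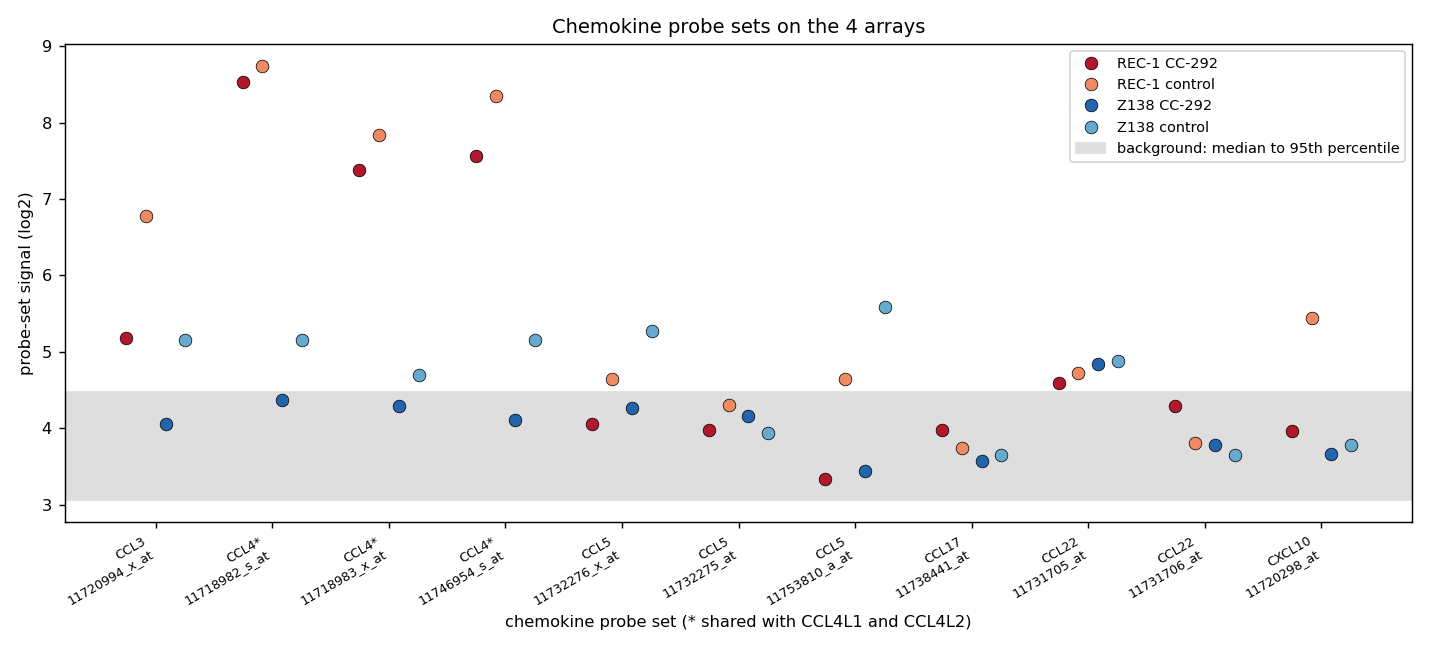
Probe-set signal (log2, vertical axis) of the 11 chemokine probe sets (horizontal axis) on the 4 arrays, with 1 point per array. The grey band runs from the lowest median to the highest 95th percentile of the background probe sets (3.06 to 4.48), and the 3 CCL4 probe sets in REC-1 lie far above it, from 7.38 to 8.75.

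CCL3, or MIP-1 alpha, had lower signal after CC-292 in both lines. Its only probe set (11720994_x_at) read 5.19 in CC-292 cells and 6.77 in control cells of REC-1. In Z138 it read 4.05 in CC-292 cells and 5.15 in control cells. Each CC-292 value thus lay under the control value of its line, and in Z138 the CC-292 value was within background. The difference in REC-1 was -1.59, or 3.0-fold lower, and only 7 of the 27763 kept probe sets differed further in that direction. In Z138 the difference was -1.10, and with the CC-292 value taken at the background level CCL3 was at least 1.74-fold lower there. Bounds of this kind use the 95th percentile of background on the dimmer array.

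Suffix x marks probe sets with probes that also match other transcripts. A separate probe set annotated to the CCL3 copies CCL3L3 and CCL3L1 (11755564_x_at) read 5.52 in CC-292 cells and 6.08 in control cells of REC-1, and 5.50 in CC-292 cells and 5.05 in control cells of Z138. It was thus lower by 0.56 on the log2 scale after CC-292 in REC-1 (difference -0.56), where CCL3 was lower too, but higher by 0.45 in Z138. Which of these near-identical genes each probe set reads could not be separated here.

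CCL4, or MIP-1 beta, had lower CC-292 than control values on all 3 shared probe sets in both lines, by less than 2-fold in REC-1. The brightest, 11718982_s_at, read 8.53 in CC-292 cells and 8.75 in control cells of REC-1, and 4.37 in CC-292 cells and 5.16 in control cells of Z138. The probe set 11746954_s_at read 7.57 in CC-292 cells and 8.35 in control cells of REC-1, and 4.10 in CC-292 cells and 5.15 in control cells of Z138. The probe set 11718983_x_at read 7.38 in CC-292 cells and 7.84 in control cells of REC-1, and 4.29 in CC-292 cells and 4.70 in control cells of Z138. All REC-1 values lay far above all Z138 values, whichever the treatment. The mean difference over the 3 probe sets was -0.48 ± 0.29 in REC-1 and -0.75 ± 0.32 in Z138 (SD over 3 probe sets, which holds no error between cultures). On 11746954_s_at the Z138 difference reached -1.05, at least 1.74-fold lower with the CC-292 value at background.

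Of the 4 probe sets annotated to CCL4L1 and CCL4L2 without CCL4, 2 were at background on every array and 2 were above it on 1 array, the REC-1 control. The brighter (11744660_s_at) read 4.34 in CC-292 cells and 5.02 in control cells of REC-1.

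CCL5, or RANTES, was dim, with signal above background in control cells of both lines and at background in CC-292 cells. On 11753810_a_at it read 3.44 in CC-292 cells and 5.58 in control cells of Z138. The same probe set read 3.33 in CC-292 cells and 4.65 in control cells of REC-1. Both CC-292 values were near the background median and both control values were above background. The measured differences were -2.15 in Z138 and -1.32 in REC-1, but each rests on a value at background. With those values taken at the background level, CCL5 was at least 2.35-fold lower in Z138 and at least 1.13-fold lower in REC-1. On the brightest of its probe sets by mean, 11732276_x_at, CCL5 read 4.26 in CC-292 cells and 5.27 in control cells of Z138, a difference of -1.01, and 4.06 in CC-292 cells and 4.64 in control cells of REC-1, a difference of -0.58. The third probe set, at background on every array, differed by 0.22 in Z138 and -0.34 in REC-1. Its 3 probe sets thus disagreed in size, with a mean of -0.98 ± 1.18 in Z138 and -0.75 ± 0.51 in REC-1 (SD over 3 probe sets). The T-cell and NK-cell markers, whose cells are known for CCL5, summed over 6 and 5 genes to 24.07 and 20.34 in CC-292 cells and 25.23 and 21.28 in control cells of Z138. In REC-1 these sums were 23.24 and 19.55 in CC-292 cells and 23.89 and 19.42 in control cells. Of the 6 T-cell markers, CD3E, CD2 and TRAT1 were at background on every array, and CD3D, CD3G and CD8A were each above it on 2. Of the 5 NK-cell markers, NKG7, KLRD1 and PRF1 were at background on every array, GNLY was above it on 3 and NCR1 on 1. The part of these cell types in the CCL5 difference was not tested.

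CXCL10 was above background on a single array. Its probe set (11720298_at) read 3.96 in CC-292 cells and 5.44 in control cells of REC-1, against 3.67 in CC-292 cells and 3.78 in control cells of Z138. Only the REC-1 control stood out, and the 3 other arrays lay within background. The measured REC-1 difference was -1.48, against a CC-292 value at background, and as a bound CXCL10 was at least 1.96-fold lower after CC-292. In Z138 the difference was -0.12, between values that were both at background.

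CCL22 and CCL17, the CCR4 ligands, showed no difference of 2-fold in either line. The brighter probe set of CCL22 (11731705_at) read 4.60 in CC-292 cells and 4.72 in control cells of REC-1, and 4.84 in CC-292 cells and 4.88 in control cells of Z138. These values were all just above background and differed by -0.13 in REC-1 and -0.04 in Z138. CCL17 (11738441_at) read 3.98 in CC-292 cells and 3.74 in control cells of REC-1, and 3.57 in CC-292 cells and 3.65 in control cells of Z138. With CCL17 at background throughout, no difference could be read from it.

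**Figure D2:**
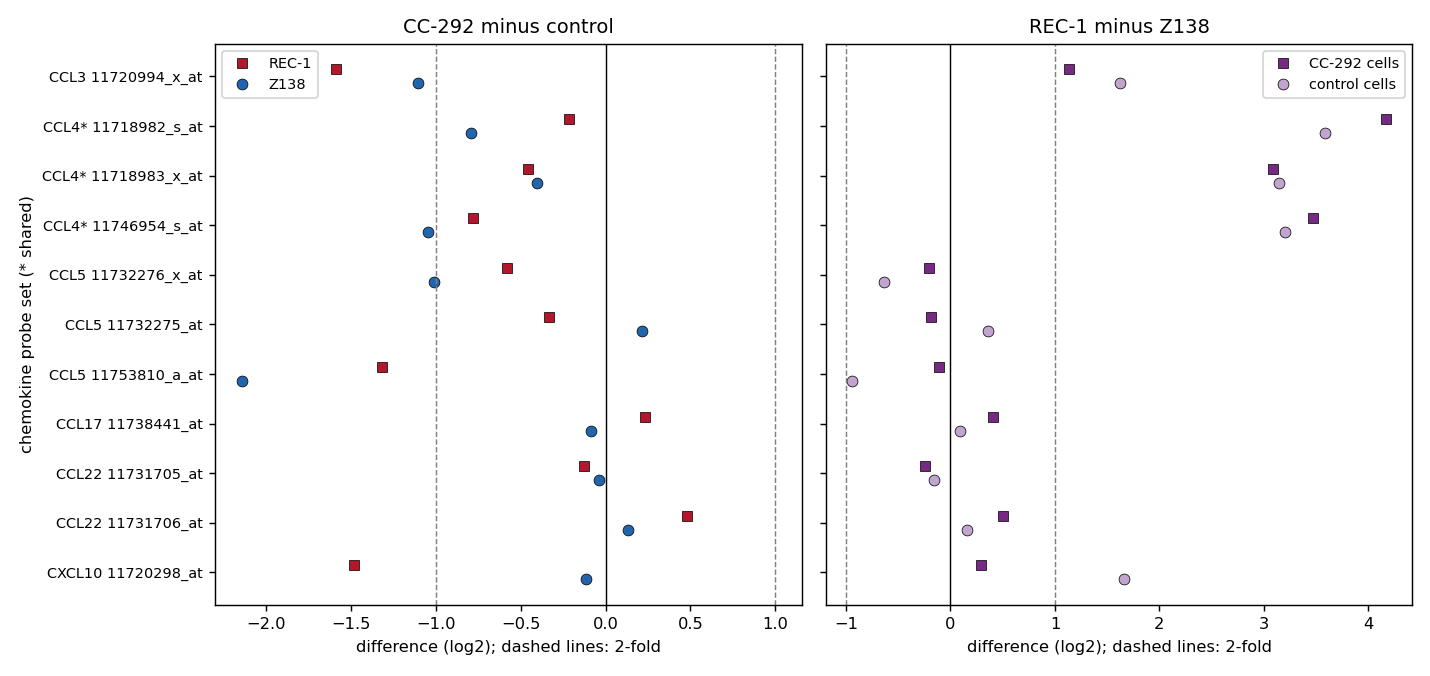
Log2 differences (horizontal axes) of the 11 chemokine probe sets (vertical axis), CC-292 minus control in each line on the left and REC-1 minus Z138 in CC-292 and in control cells on the right. Dashed lines mark 2-fold, and CCL5 on 11753810_a_at in Z138 stands at -2.15 on the left, against a CC-292 value at background, while CCL4 stands at 3.09 to 4.17 on the right.

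Counted over all 11 chemokine probe sets, 3 were at least 2-fold lower and 0 at least 2-fold higher after CC-292 in REC-1, where 0.775% of all 49293 probe sets were at least 2-fold lower and 0.716% higher. In Z138, 4 were at least 2-fold lower and 0 at least 2-fold higher, against 0.335% and 0.221% of all probe sets. The median difference of the 11 was -0.46 in REC-1 and -0.41 in Z138, beside -0.04 and 0.01 over all probe sets. The same probe sets made up the calls among the 8 kept ones, where the shares of all kept probe sets were 0.814% lower and 1.02% higher in REC-1 and 0.385% lower and 0.195% higher in Z138. By brightest probe set, 2 of the 5 kept chemokine genes were at least 2-fold lower in REC-1 (CCL3 and CXCL10) and 2 in Z138 (CCL3 and CCL5), with 0 higher. CXCL10 and the kept CCL5 probe sets passed the brightness minimum through control arrays alone. Probe sets kept in this way tend to read lower after CC-292, so these counts of kept ones are a description only. Among all 10824 kept genes, 0.758% were at least 2-fold lower and 0.841% higher in REC-1, and 0.351% lower and 0.212% higher in Z138. The 3 in REC-1 were those of CCL3, CXCL10 and CCL5 (11753810_a_at), and the 4 in Z138 were those of CCL3, CCL4 (11746954_s_at) and CCL5 (11753810_a_at and 11732276_x_at). Probe sets of 1 gene share a target and are not independent. Dim probe sets crossed 2-fold more often. In REC-1, 1.73% of kept probe sets whose highest value was under log2 6.61 were at least 2-fold lower, against 0.265% of brighter ones. Only the CCL3 and CCL4 probe sets belong to the brighter class. CCL3 does so through the REC-1 control array alone (6.77), which favours a lower value after CC-292 in REC-1. With values under background raised to it, 1 probe set remained at least 2-fold lower in REC-1 (CCL3) and 1 in Z138 (CCL5).

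**Figure D3:**
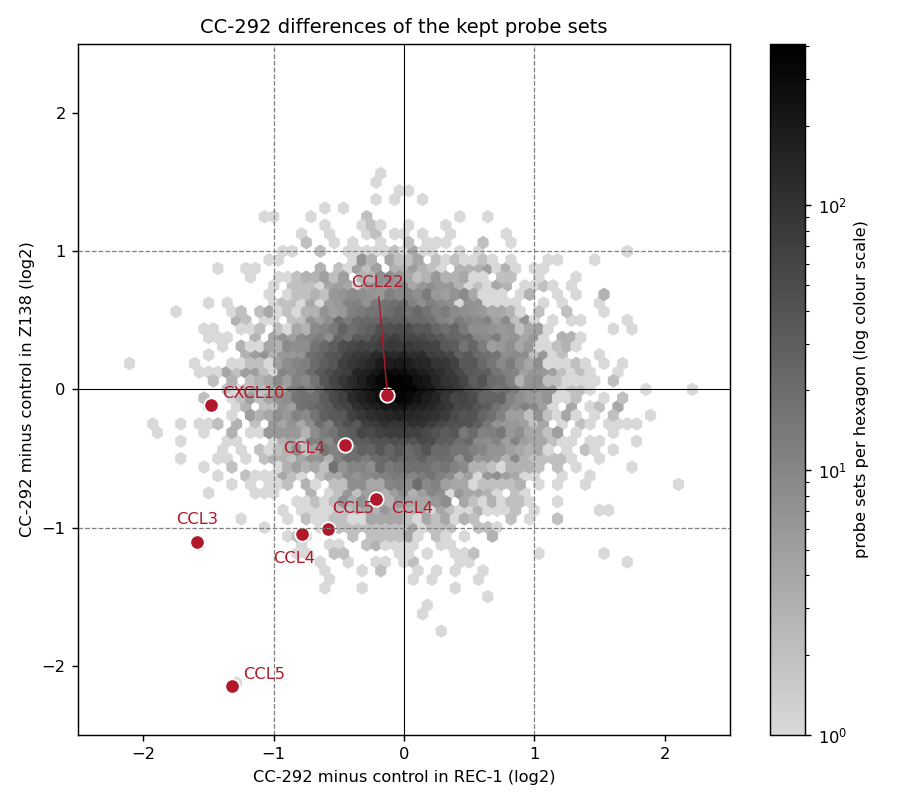
CC-292 minus control on the log2 scale in REC-1 (horizontal axis) and Z138 (vertical axis) for the 27763 kept probe sets, as grey hexagons shaded on a log scale, with the 8 kept chemokine probe sets in red. CCL3 (-1.59 and -1.10) and CCL5 on 11753810_a_at (-1.32 and -2.15) lie past 2-fold in both lines, and CXCL10 in REC-1 alone (-1.48 and -0.12).

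The average CC-292 difference over both lines was tested with limma, with the line as a block, so that the lines serve as replicates and the fit has 1 residual degree of freedom. With Benjamini-Hochberg adjustment over 27763 probe sets, 0 probe sets were called in either direction. Unadjusted p was under 0.05 for 5 of the 8 kept chemokine probe sets, against 4.18% of all kept. Without the line block it was under 0.05 for 1 of the 8, and for only 28 of all 27763 kept probe sets. Without the brightness minimum it was so for 4 of 11, and for 2231 of all 49293 probe sets. The 5 in the main fit were 2 of CCL5, 2 of CCL4 and that of CCL3. Those of CCL5 passed the brightness minimum through control arrays alone, which favours a lower value after CC-292. By probe set, the largest average was that of CCL5 on 11753810_a_at, at -1.73 (SE 0.24, limma adjusted p = 1). CCL3 followed at -1.35 (SE 0.19, adjusted p = 1), and both were lower in 2 of 2 lines. That CCL5 average rests on CC-292 values at background in both lines, and that of CCL3 on 1 such value, in Z138. On 11732276_x_at CCL5 averaged -0.80, and on 11732275_at, fitted without the brightness minimum, -0.06. With its probe sets averaged before the fit, CCL5 came to -0.86, behind CCL3 at -1.35. The order of CCL5 and CCL3 thus depends on the probe set. CCL4 on 11746954_s_at averaged -0.91 (SE 0.17, limma adjusted p = 1). CXCL10 averaged -0.80 (SE 0.34, limma adjusted p = 1), the largest SE of the 8, with unequal values in the 2 lines. None of these chemokine differences passed the correction, and the size of the difference between the lines' responses could not be tested with 1 array per group. As values, the REC-1 minus Z138 difference of responses was -1.37 for CXCL10, -0.48 for CCL3 and 0.83 for CCL5 on 11753810_a_at. Each rests on values at background. These were all but the REC-1 control for CXCL10, both CC-292 arrays for CCL5 and the Z138 CC-292 array for CCL3. The other CCL5 probe sets gave 0.43 (11732276_x_at) and -0.55 (11732275_at, at background on every array).

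The lines differed most in CCL4. In CC-292 cells, CCL4 was 18.0-fold higher in REC-1 than in Z138 on 11718982_s_at, and in control cells it was 12.0-fold higher. The Z138 CC-292 value behind the 18.0-fold, 4.37, was barely above the background threshold of 4.35. On 11718983_x_at and 11746954_s_at that array was at background, and CCL4 was at least 8.17-fold and 9.29-fold higher in REC-1 CC-292 cells. In control cells the other CCL4 probe sets were 8.82-fold and 9.19-fold higher in REC-1. CCL3 was at least 1.78-fold higher in REC-1 in CC-292 cells and 3.08-fold higher in control cells. CXCL10 was at least 2.01-fold higher in REC-1 control cells, with no fold in CC-292 cells, where both values were at background. CCL5 ran the other way in control cells, with a REC-1 minus Z138 difference of -0.94 on 11753810_a_at and -0.63 on 11732276_x_at, and the 2 lines were at background in CC-292 cells. CCL22 differed by -0.25 in CC-292 cells and -0.16 in control cells.

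Over all 11 probe sets, 4 were at least 2-fold higher in REC-1 in CC-292 cells and 5 in control cells, against 6.96% and 7.03% of all probe sets. In both comparisons 0 were at least 2-fold lower in REC-1, against 7.46% of all probe sets in CC-292 cells and 6.95% in control cells. By brightest probe set, 2 chemokine genes, CCL3 and CCL4, were at least 2-fold higher in REC-1 in CC-292 cells, where 12.0% of all kept genes were. In the limma fit with the agent as a block, which compares these 2 lines and no wider population, 4 of the 8 kept chemokine probe sets were higher in REC-1 and 0 were lower, where 20.0% of all kept probe sets were called higher and 20.9% lower. CCL4 was higher by 3.88 on 11718982_s_at (SE 0.205, limma adjusted p = 0.000398), 3.33 on 11746954_s_at (adjusted p = 0.000383) and 3.12 on 11718983_x_at (adjusted p = 0.000384) in REC-1 relative to Z138. CCL3 was higher in REC-1 by 1.38 (SE 0.19, limma adjusted p = 0.00537), a call that was lost without the agent block (adjusted p = 0.118). CXCL10 was 0.97 higher (SE 0.34, limma adjusted p = 0.0757) and missed the threshold of 0.05, and the CCL5 probe sets at -0.53 (adjusted p = 0.145) and -0.42 (adjusted p = 0.133) also missed it. CXCL10 passed the brightness minimum through the REC-1 control array alone, which favours a higher value in REC-1. Hybridization controls were themselves higher on the REC-1 arrays by a median of 0.17 in CC-292 cells and 0.33 in control cells, and their part in these differences was not tested.

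Other genes of the chemokine system were mostly too dim to read. Of 34 other chemokine ligand genes measured, 4 were above background on any array and 0 differed 2-fold after CC-292 in either line. Over all 18240 genes, 0.740% were at least 2-fold lower and 0.576% higher in REC-1, and 0.323% lower and 0.219% higher in Z138. CXCL16, a membrane-bound chemokine, read 5.71 in CC-292 cells and 4.88 in control cells of REC-1, and 4.24 in CC-292 cells and 4.62 in control cells of Z138. CXCL9 and CXCL11, which share the receptor CXCR3 with CXCL10, were at background on every array. The 4 measured receptor genes for the 6 chemokines, CCR1, CCR4, CXCR3 and the scavenger receptor ACKR2, were at background on all 4 arrays.

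Of 16 other chemokine receptor genes, 1 was at least 2-fold lower and 0 higher after CC-292 in REC-1, and 0 differed 2-fold in Z138. Among all 18240 genes counted by their brightest probe set, 0.740% were at least 2-fold lower and 0.576% higher in REC-1, and 0.323% lower and 0.219% higher in Z138. The lower gene was ACKR3, a scavenger of CXCL12, which read 4.15 in CC-292 cells and 5.45 in control cells of REC-1. That CC-292 value was at background, and as a bound ACKR3 was at least 1.97-fold lower. In Z138 ACKR3 was at background on both arrays. CCR7, which guides B cells to lymph nodes, read 5.59 in CC-292 cells and 4.63 in control cells of REC-1 and 9.26 in CC-292 cells and 9.80 in control cells of Z138. CXCR5, the B-cell follicle receptor, read 10.59 in CC-292 cells and 10.60 in control cells of REC-1, and was at background in Z138.

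Of 17 transcription factor genes known to act on chemokine genes, 12 had a difference below 0 in REC-1, where 57.8% of all genes did, and 13 in Z138, where 49.2% did. The medians were -0.19 in REC-1 and -0.15 in Z138. Of these, 0 differed 2-fold in REC-1, and 1 was at least 2-fold lower in Z138. That was NFATC1, which encodes a calcium-regulated factor of antigen-receptor signalling, at 9.86 in CC-292 cells and 10.22 in control cells of REC-1 and 5.79 in CC-292 cells and 6.80 in control cells of Z138. RELB, an NF-kB subunit gene, had differences of -0.92 in REC-1 and -0.15 in Z138, and JUN, an AP-1 subunit gene, had -0.72 in REC-1 and was at background on both Z138 arrays.

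Of 11 measured interferon-induced genes, 1 was at least 2-fold higher and 0 lower in REC-1, and 0 differed 2-fold in Z138. Over all 18240 genes the shares were 0.576% higher and 0.740% lower in REC-1, and 0.219% higher and 0.323% lower in Z138. IFIT3, an antiviral effector gene, was the higher gene, with 5.44 in CC-292 cells of REC-1, 1.44 above the control cells, where it was at background. As a bound IFIT3 was at least 1.94-fold higher. ISG15, a ubiquitin-like modifier gene, differed by 0.89 and OAS1 by 0.80 in REC-1. Of the 11, 7 had a difference above 0 and 4 below 0 in REC-1, where 57.8% of all genes were below 0. IFIT2, like CXCL10 above background on the REC-1 control array alone, read 3.53 in CC-292 cells and 4.48 in control cells of REC-1. Of 11 measured cytokine genes of activated B cells, 1 was at least 2-fold lower in REC-1 and 0 in Z138. It was LTA, which encodes lymphotoxin alpha, with differences of -1.10 in REC-1 and -0.52 in Z138. The list medians were -0.37 in REC-1 and -0.14 in Z138 for the cytokines, beside -0.40 and -0.45 for the brightest probe sets of the 6 chemokine genes and -0.06 and 0.00 over all genes.

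**Figure D4:**
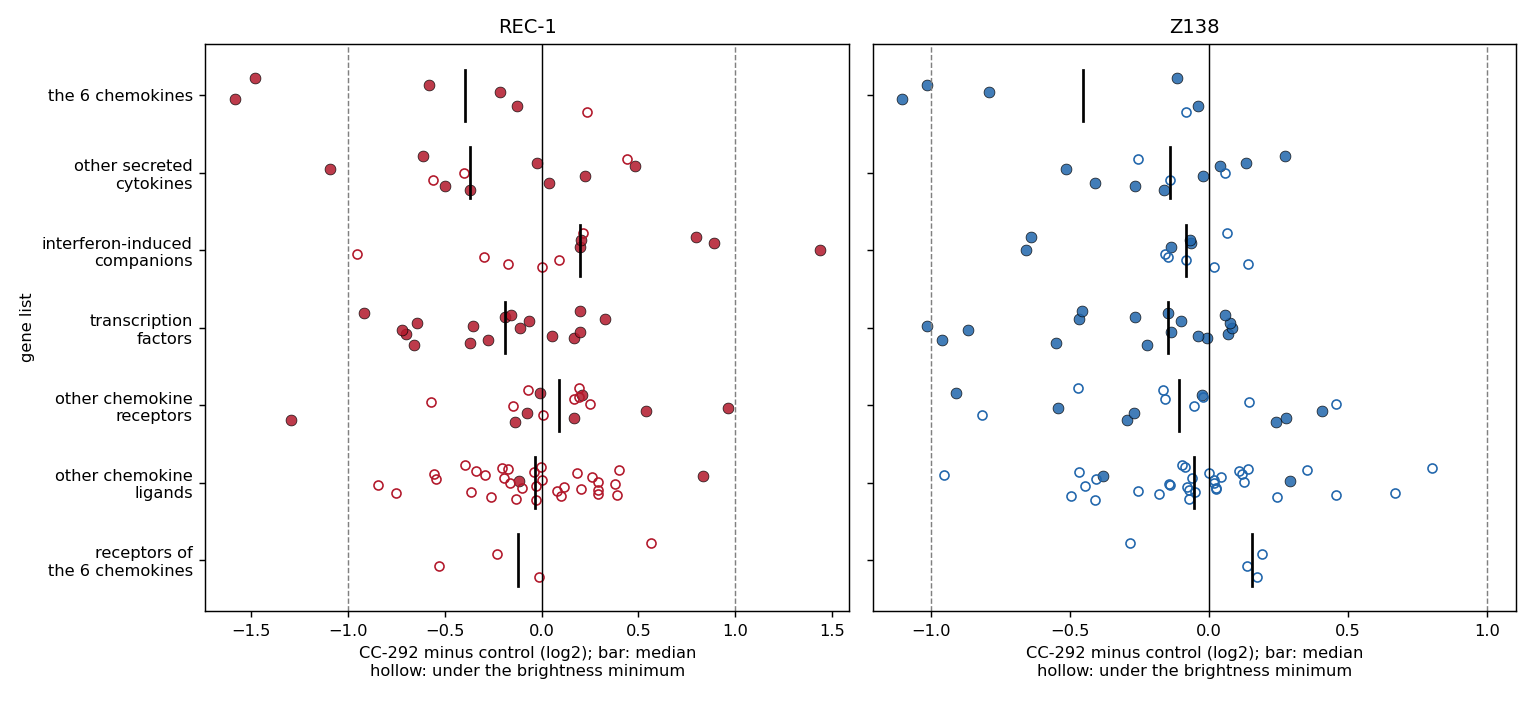
CC-292 minus control on the log2 scale (horizontal axes) in REC-1 and Z138, with 1 point for the brightest probe set of each measured gene, grouped by list (vertical axis). Bars are medians over all points of a list, hollow points lie under the brightness minimum and dashed lines mark 2-fold. The chemokine medians are -0.40 and -0.45, and CCL3 and CXCL10 in REC-1 lie furthest left.

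Likeness of profile was measured as the Euclidean distance between the 4 array values of 2 genes, each centred on its mean, over the 10824 kept genes. Nearest to CCL3 were ACKR3 (0.61), JUN (0.67) and CD40 (0.67), a receptor gene of B-cell help. Nearest to CCL4 were LAX1 (0.20), NFATC1 (0.23) and ARHGAP25 (0.31). All had higher values in REC-1 than in Z138 and lower values in CC-292 than in control cells of both lines. ACKR3, JUN and LAX1 were at background on both Z138 arrays, so no CC-292 difference could be read from them there. ACKR3 was also at background in CC-292 cells of REC-1. CCL5 on its brightest probe set had PICK1 (0.10), NMRAL1 (0.17) and AGBL1 (0.18) as neighbours, and CXCL10 had HAPLN1 (0.18), CORT (0.23) and CDH23 (0.24). CCL22, nearly flat, had RSBN1 (0.01), H4C3 (0.03) and NAPG (0.03). With 4 arrays many genes share a profile by construction, so these names are a description.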

How the data were processed

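Per the labels' protocols, 150 ng of Trizol RNA went into biotin-labelled cRNA. Probe-set signals were deposited on a log2 scale. RMA and Affymetrix Expression Console 1.1 were used, per the submitters' processing notes. The sources used here do not give their settings or a genome build, and the log2 scale was read from the range of the values, 2.18 to 14.26. RMA commonly equalises arrays, so a shift of most genes would not show.

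Of 49386 probe sets, 93 were array controls. All 11 chemokine probe sets matched RefSeq (GRCh38.p14) symbols through Entrez identifiers. A gene was read by its brightest probe set. Chemokines and lists were chosen with earlier results of these data known. All 6 chemokines were named. From each list up to 4 kept genes were eligible, those with the largest CC-292 difference in either line (the text gives a part), plus receptors of the chemokines and, for each kept chemokine, the 3 nearest genes by profile. Genes outside this rule (CXCL9, CXCL11, IFIT2) were named after their values were seen, and so were CD3G and the other T-cell and NK-cell markers. With 1 array per group no difference within a line has a test. limma 3.58.1 in R 4.3.3 (lmFit, eBayes, line and agent in 1 fit, Benjamini-Hochberg) gave the averages. The fit was tested on simulated data in which both lines responded alike, so that test does not vouch for the p-values given here. The p-values of the fit treat lines, or agents, as replicates. The rest used numpy 2.4.6, pandas 2.3.3 and matplotlib 3.10.9 under Python 3.11.15. Alternatives were other brightness filters, array scalings, fold thresholds, probe-set choices, background treatments and limma settings. The number of arrays limits the precision.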

Additional observations from a re-analysis of the deposited data

Results flagged for a closer look

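With 1 array per group, opposite signs of the CC-292 difference in the 2 lines could be noted but not tested. Among the chemokines this held for probe sets at background on all arrays only, CCL5 on 11732275_at (-0.34 in REC-1 and 0.22 in Z138) and CCL17 (0.23 and -0.08). The probe set of the CCL3 copies CCL3L3 and CCL3L1, above background on all 4 arrays, differed by -0.56 in REC-1 and 0.45 in Z138.

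Among the other chemokine-system genes, opposite signs were seen for CXCL1 (-0.12 in REC-1 and 0.29 in Z138), CXCL16 (0.83 and -0.38) and CCR7 (0.96 and -0.54). The interferon-induced genes ISG15 (0.89 and -0.06), IFIT3 (1.44 and -0.66), MX1 (0.20 and -0.07) and OAS1 (0.80 and -0.64) had positive differences in REC-1 and negative ones in Z138. IFIT3 was at background in REC-1 control and Z138 CC-292 cells, and OAS1 in Z138 CC-292 cells. As bounds, IFIT3 was at least 1.94-fold higher in REC-1 and at least 1.13-fold lower in Z138, and OAS1 at least 1.26-fold lower in Z138. CXCL16 was at background in Z138 CC-292 cells. VEGFA, a vascular growth factor gene, had -0.61 in REC-1 and 0.27 in Z138. The difference between the lines was not tested for any of these.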

How the results depend on the processing

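Counts of kept chemokine probe sets at least 2-fold different after CC-292, 3 in REC-1 and 4 in Z138, became 1 and 2 under a brightness minimum at the 70th percentile, 1 and 1 with a threshold of 3-fold, and 1 and 1 with values raised to background. The REC-1 call left at the 70th percentile was CCL3, which passed that minimum through the REC-1 control array alone. Counted by brightest probe set, 2 genes in REC-1 and 2 in Z138 became 1 and 1 at the 70th percentile, 1 and 0 at 3-fold, and 1 and 0 with values raised to background, and Z138 had 1 with the mean of all probe sets. The 2 genes at least 2-fold higher in REC-1 in CC-292 cells became 1 at 3-fold and 1 with values raised to background. The REC-1 minus Z138 difference of CCL4 in CC-292 cells moved from 4.17 to 3.58 with the mean of its probe sets. Of the 11 chemokine probe sets, those above background numbered 5, 8, 2 and 7 on the REC-1 CC-292, REC-1 control, Z138 CC-292 and Z138 control arrays. They numbered 3, 3, 0 and 0 against the highest background probe set, which is the most GC-rich. The labels give no replicate numbers, so the limma fit pairs arrays by line alone. Without that block, 1 of 8 chemokine probe sets had an unadjusted p under 0.05 for CC-292, against 5 with it. Over all 27763 kept probe sets, 28 had one without the block, against 1161 with it. For the line difference, limma called 11351 probe sets but 4956 genes with the mean of probe sets, where fewer features were tested. CCL3 lost its line call without the agent block, and CXCL10 gained one with an intensity trend (adjusted p = 0.0496) and with the mean of probe sets (adjusted p = 0.0458). Without the brightness minimum, which CXCL10 passed through the REC-1 control array alone, it had no line call (limma adjusted p = 0.0957). The causes were not tested. In all, 88 of 108 counts stayed within 1.5 times their reported value and 217 of 224 single-gene values kept their side of the threshold or moved by less than the SD pooled over genes with several probe sets. Some of these entries could not differ, such as the mean over probe sets for CCL3, CCL17 and CXCL10, which have 1 probe set each. Others were the 0 calls for CC-292, the same under every limma setting. The shares that stayed are thus no measure of robustness. No value changed sign past 2-fold, and no count changed with centring, quantile normalization or cyclic loess by over 1.5 times. Dim signal limits CCL5, CXCL10, CCL17, CCL22 and all of Z138.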
